A study of Drosophila melanogaster with 2 samples.

Results

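The genes homothorax (hth, FBgn0001235), extradenticle (exd, FBgn0000611), teashirt (tsh, FBgn0003866) and tiptop (tio, FBgn0028979) encode Hox cofactors and partner proteins. They were taken by name, as 4 of the 13968 protein-coding genes annotated on the chromosome arms. A ChIP-seq peak was counted at a gene when its summit lay inside the gene or had its nearest protein-coding transcription start site (TSS) there. The study mapped the binding of a toy-eGFP fusion protein in whole embryos of the Drosophila melanogaster strain toy-GFP, collected at 0 to 24 h as 2 biological replicates. Toy (twin of eyeless) is a transcription factor of the Pax6 type, the transgene is an insertion that targets toy, and both replicates carry it, so there is 1 group and no contrast between conditions. The labels describe chromatin sonicated to 200 to 800 bp and precipitated with an antibody against GFP, although the field for the antibody reads toy. Whole embryos of a full day of development were pooled, so a site used in few cells or for a short time is averaged with all others. The control experiment that the labels point to was not analysed here.

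Homothorax is a homeodomain protein of the TALE class, the fly counterpart of vertebrate MEIS proteins. It binds Extradenticle, the counterpart of PBX proteins, and brings it into the nucleus, where the pair bind DNA together with Hox proteins and sharpen their choice of sites. Teashirt and Tiptop are related zinc finger proteins: tsh patterns the trunk of the embryo, tio can replace much of its activity, and both are known with hth for their roles in the eye and antennal primordium, where toy and eyeless act as well.

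Of the 8 deposited peak lists, 4 hold peaks past the authors' threshold on the irreproducible discovery rate (IDR, a measure of how poorly a peak's rank repeats between 2 peak sets), and 4 are ranked lists that also hold the many weaker peaks. There is a list of each kind for replicate 1 and replicate 2, and 2 of each kind for the series. The thresholded lists of the series are called conservative (1402 peaks on chromosome arms) and pooled (1883 peaks), and those of replicates 1 and 2 hold 925 and 1066 peaks on arms. The ranked list of the series that contains every conservative peak holds 126842 peaks on arms, the other one 142167, and those of replicates 1 and 2 hold 80746 and 112917. Every signal value below is the authors' own value for the peak, on a scale that the labels do not describe, so levels are compared within a list, and replicates by the ratio at a site beside the ratios at other sites. Read depth is unknown.

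The sequences that carry the result are the thresholded site in hth, the next strongest sites in hth, the strongest sites assigned to tsh and the thresholded site between tsh and its neighbour CG11629. They are plus-strand bases of the RefSeq Release 6 assembly (dm6) centred on the summit, 300 bases for hth site 1 and, for the others, the summit with 100 bases on each side. Capitals mark matches on either strand to 9 short motifs: TGACAG (Hth/MEIS), TGATTNAT (Exd with a Hox protein), TAATTA (homeodomain), TCACGC (core of paired domain sites), GGAATG (Sd/TEAD), TATCGATA (DRE), GAGAG (GAGA factor), CAGGTAG (Zelda) and the repeat CACACA. Matches to TGATTNAT and to TAATTA can share bases, and those to GAGAG or CACACA can overlap copies of themselves.
hth site 1, chr3R:10597633-10597932: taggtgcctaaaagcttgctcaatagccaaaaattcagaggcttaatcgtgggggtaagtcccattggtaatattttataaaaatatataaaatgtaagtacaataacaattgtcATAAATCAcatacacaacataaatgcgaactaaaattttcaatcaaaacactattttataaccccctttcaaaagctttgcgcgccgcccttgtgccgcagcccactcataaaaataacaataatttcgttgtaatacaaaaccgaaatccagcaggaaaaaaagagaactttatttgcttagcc
hth site 2, chr3R:10540716-10540916: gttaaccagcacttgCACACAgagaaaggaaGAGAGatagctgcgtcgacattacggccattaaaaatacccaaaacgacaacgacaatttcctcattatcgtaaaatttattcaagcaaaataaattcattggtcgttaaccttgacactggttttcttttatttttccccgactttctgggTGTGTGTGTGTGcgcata
hth site 3, chr3R:10628346-10628546: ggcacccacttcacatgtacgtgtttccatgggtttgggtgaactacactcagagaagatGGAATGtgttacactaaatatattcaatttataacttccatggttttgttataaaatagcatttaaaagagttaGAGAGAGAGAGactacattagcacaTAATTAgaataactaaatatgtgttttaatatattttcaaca
tsh site 1, chr2L:21814545-21814745: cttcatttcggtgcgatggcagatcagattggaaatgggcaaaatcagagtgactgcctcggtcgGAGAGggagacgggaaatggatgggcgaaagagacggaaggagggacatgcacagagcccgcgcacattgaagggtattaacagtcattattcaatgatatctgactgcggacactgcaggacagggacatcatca
tsh site 2, chr2L:21847049-21847249: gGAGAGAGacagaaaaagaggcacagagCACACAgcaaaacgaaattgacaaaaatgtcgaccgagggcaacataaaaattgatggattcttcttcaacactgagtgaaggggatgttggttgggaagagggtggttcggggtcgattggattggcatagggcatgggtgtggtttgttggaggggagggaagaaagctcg
tsh-CG11629 site, chr2L:21867353-21867553: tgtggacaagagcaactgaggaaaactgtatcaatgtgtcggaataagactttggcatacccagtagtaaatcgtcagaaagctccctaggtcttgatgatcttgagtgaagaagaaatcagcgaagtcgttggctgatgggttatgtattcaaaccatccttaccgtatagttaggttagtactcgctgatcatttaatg

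The toy-eGFP peaks past the authors' threshold lay at hth and at none of exd, tsh and tio. The same 1 of 4 genes had such a peak in all 4 thresholded lists, and hth had exactly 1 peak in each. Over all protein-coding genes, 8.93% had at least 1 peak in the conservative list, 11.6% in the pooled list, 6.09% in the list of replicate 1 and 7.12% in that of replicate 2. With 4 genes, 1 bound gene is no measure of a share. Of the 313 genes of at least 50 kb, which include hth, 33.9% had a conservative peak.

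The bound site of hth, whose product is the DNA-binding partner of Exd, lay deep in an intron. In dm6 the gene covers 3R, 10507561 to 10639568, on the minus strand, with TSSs at 10639568 and 10614276. The conservative peak spanned 10597612 to 10597951 with its summit at 10597782, which is 16494 bp downstream of the nearer TSS. It lay in an intron of 9190 bp (10593602 to 10602791) of all 5 annotated hth transcripts, 5010 bp from the exon before it and 4181 bp from the exon after it. Few conservative peaks were as remote: 56 of 1402 (3.99%) had a summit farther from the nearest TSS.

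In replicate 1 the hth site had a signal value of 75.2 (10597603 to 10597918), and in replicate 2 it had 61.6 (10597639 to 10597934). The series value was 136. The scale of the replicates' lists may differ, so their values were set against the ratios at other peaks. The log2 ratio of replicate 2 to replicate 1 was -0.29. This lay within the spread over the 1388 conservative peaks found in both ranked lists (median 0.04, SD 0.46). Conservative peaks, the hth site among them, had already passed a threshold on how well their ranks repeat. A ratio close to those of the other conservative peaks therefore cannot decide whether the hth site repeats. By signal the peak ranked 457 of 1404 in the conservative list, 469 of 1895 in the pooled list, 390 of 925 in replicate 1 and 603 of 1098 in replicate 2. It was thus above the median signal of its list in 3 of these 4 lists, and below the median of 64.9 in replicate 2. The global IDR was 0.000493 in replicate 1, 0.00146 in replicate 2 and 0.000509 in the series ranked list, against the authors' threshold of 0.01. Among the 475 conservative peaks in introns, which had a median signal of 98.8, 116 were stronger than the hth peak.

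The window of 100 bases on each side of this summit held 1 match to TGATTNAT, the letters ATAAATCA on the plus strand at 10597748 to 10597755, which start 34 bases below the summit coordinate. No match to any of the other 8 motifs was found with 50, 100 or 200 bases on each side, and no overlap between motifs arises there. TGATTNAT was present in 5.35% of the 1402 conservative windows of the same length (Wilson 95% interval 4.29 to 6.65%, counting error only) and in 4.63% of the 126842 series ranked windows. A match is a description of the letters and shows no binding of Exd or a Hox protein.

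**Figure D1:**
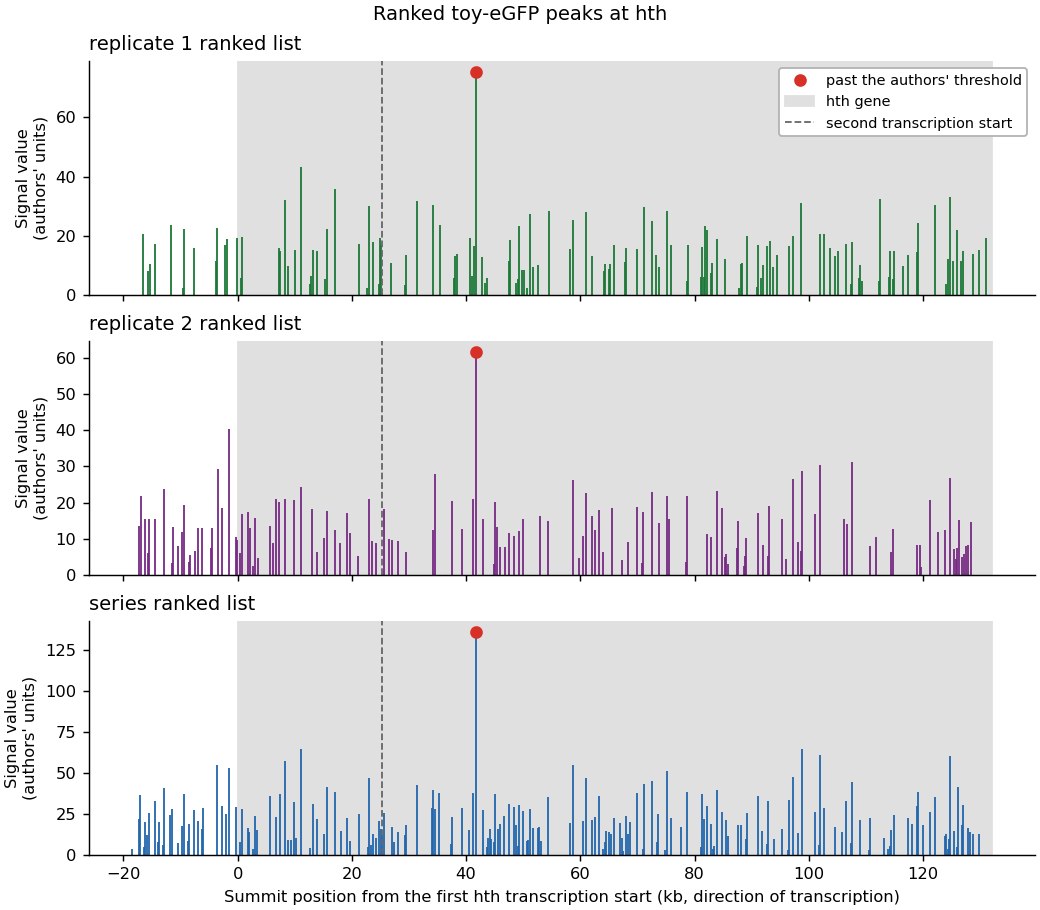
Signal value (authors' units, linear axis) of every ranked peak at hth against the distance of its summit from the first hth TSS in kb, in the direction of transcription, for replicate 1, replicate 2 and the series. Bars are peaks, grey shading is the gene, the dashed line is the second TSS and the red point marks the 1 peak past the threshold, at 75.2, 61.6 and 136 in the 3 panels, above every other peak at the gene.

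The remaining hth peaks were numerous and weak. The gene had 197 peaks in the series ranked list, 200 in the other series ranked list, 139 in replicate 1 and 140 in replicate 2. In the series ranked list 10 genes had more peaks, among them the long genes Myo81F with 984 and kirre with 441. Per kb of gene body the number was ordinary. The 169 series ranked peaks with a summit inside hth gave 1.28 per kb, against a median of 1.11 over genes of at least 1 kb. Among all protein-coding genes that was percentile 61.5. The same value per kb was at percentile 63.7 in replicate 1 and 52.4 in replicate 2. Of the 125 genes with at least 100 series ranked peaks, which include hth, 53 (42.4%) had a conservative peak, against 8.93% of all genes.

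**Figure D2:**
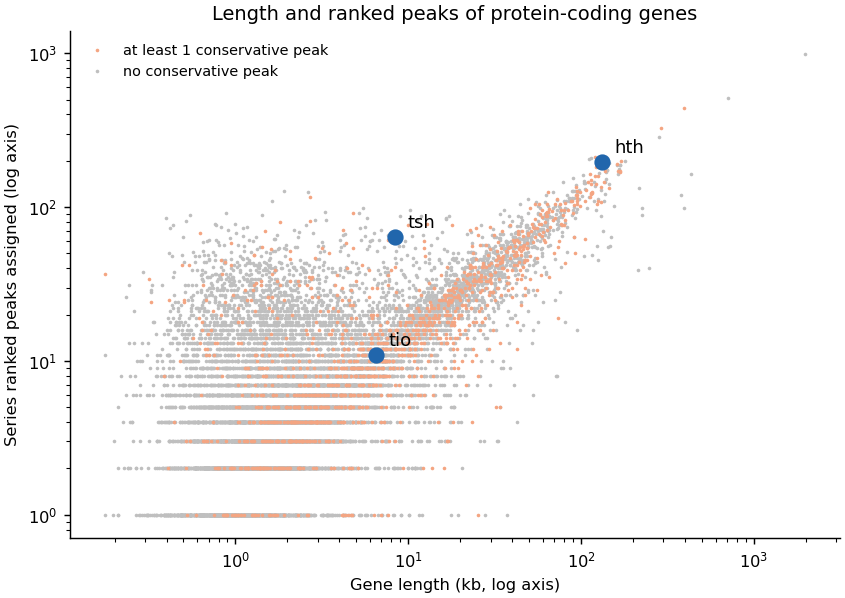
Gene length in kb (log axis) against the number of series ranked peaks assigned (log axis) for protein-coding genes with at least 1 such peak. Blue points are hth (197 peaks, 132 kb), tsh (64 peaks, 8.42 kb) and tio (11 peaks, 6.53 kb); small grey points are genes without a conservative peak and orange points genes with one. The gene exd has 0 series ranked peaks and is not drawn.

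The signal of the hth peaks was close to that of ranked peaks in general. The median was 19.2 at hth and 19.5 over the series ranked list, 14.9 and 14.5 in replicate 1, and 12.6 and 12.4 in replicate 2. Behind the thresholded site, the next in the series were hth site 2 at 64.6 (10540646 to 10540985) and hth site 3 at 64.4 (10628276 to 10628615), at 47.4% and 47.2% of the value of the first. Site 2 lay 73460 bp downstream of the nearer TSS and gave 31.1 in replicate 1 and 28.8 in replicate 2, with a series IDR of 0.0248. In the replicates' own ranked lists the IDR of site 2 was 0.790 in replicate 1 and 0.661 in replicate 2. Site 3 lay between the first and the second TSS, 11122 bp downstream of the first, and gave 43.1 in replicate 1 and 24.3 in replicate 2. Its IDR was 0.0412 in the series ranked list and 0.0116, just outside the threshold, in the other one. In the replicates' own ranked lists the IDR of site 3 was 0.0200 in replicate 1 and 0.371 in replicate 2. Site 2 held 1 match to GAGAG and 5 to CACACA, some of which overlap, and site 3 held matches to GAGAG, to GGAATG and to TAATTA. At a looser IDR of 0.05, hth had 6 peaks in the series ranked list, where 14.4% of all genes had at least 1. These 6 were not all separate strong sites. A peak of 9.59, at 124.54 kb from the first TSS, lay beside a peak of 60.2 at 124.76 kb, and another had 27.7.

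Of the replicates, only replicate 2 had a peak 1466 bp upstream of the first hth TSS (10640886 to 10641181), at 40.4 with an IDR of 0.0581. Replicate 1 listed no ranked peak that overlapped it. The next sites of the series were at 60.7 (10537404 to 10537743) and 60.2 (10514638 to 10514977). The weaker of these lay in an hth intron, although its nearest TSS was that of Cyp12e1, the gene beyond the 3′ end of hth, at 80019 bp.

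Introns held most of the hth peaks. Of the 197 series ranked peaks, 157 (79.7%, 73.5 to 84.7%) were intronic, against 37.8% of all series ranked peaks, and 27 were intergenic. The share of the hth sequence that is intron was not computed, so this difference shows no preference for introns. Only 5 hth peaks lay within 500 bp of a TSS, the strongest at 29.2. Between the first and the second TSS there were 1.30 peaks per kb and from the second TSS to the end 1.27, so both stretches held peaks at a similar density. None of the 197 overlapped an annotated transposable element, which allows a share of up to 1.91% (Wilson 95% bound), against 1.74% of all series ranked peaks.

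The share of hth peaks with a counterpart in the other replicate depended on the overlap asked for. Of the 139 ranked peaks of replicate 1 at hth, 84 (60.4%, 52.1 to 68.2%) shared at least 1 base with a ranked peak of replicate 2, against 62.6% over the whole list. In the other direction 79 of 140 (56.4%, 48.2 to 64.4%) did so, against 43.9% over the list, with no test made of that difference. Where 50% of each peak had to overlap, 61 of 139 (43.9%) and 62 of 140 (44.3%) did, against 46.8% and 33.2% over the lists. Of the 197 series peaks, 91 (46.2%, 39.4 to 53.2%) overlapped a peak of both replicates, against 43.0% of all series ranked peaks. Replicate 2 was higher at 33 of these 91, and at 23573 of all 54525 such series peaks. The log2 ratios at the 91, replicate 2 over replicate 1, centred on -0.30 (median, SD 0.86 over peaks). Those at the 54525 centred on -0.13 (median, SD 0.87). None of these differences was tested.

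The gene exd, which encodes the cofactor that Hth carries into the nucleus, had no peak in 2 of the 4 ranked lists and only peaks below the list median in the others. It covers X, 15992468 to 15996509 (plus strand, 4.04 kb, TSSs at 15992468, 15992700 and 15992936), with CG46312 493 bp below it and CG8939 506 bp above. No list with a threshold held a peak there, and neither did the ranked list of replicate 2 or the series ranked list. Replicate 1 listed 4 peaks with signal values of 6.19, 7.38, 10.3 and 12.1, all below its list median of 14.5 and all at an IDR of 0.918. Their number was ordinary for that list, at 0.990 peaks per kb (percentile 66.0), against a median of 0.777. The other series ranked list had 2, at 8.79 and 11.8, both within 500 bp of a TSS. The nearest conservative peak, 97469 bp from a TSS of exd, was assigned to Tob with a signal value of 158.

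The stretch around exd was empty in 2 of the 4 ranked lists. In replicate 2 the exd start lay in a gap of 37.3 kb without a summit, with the nearest summits 11064 bp below and 26237 bp above it, and on X only 13 gaps between neighbouring summits were as large, this one counted, while the median gap was 0.807 kb. In the series ranked list the gap was 32.0 kb, with 20 gaps as large. In replicate 1 it was 1.71 kb and in the other series ranked list 1.23 kb, near the medians of 1.01 and 0.661 kb. Both neighbours, CG46312 and CG8939, were also without a peak in replicate 2, whereas replicate 1 listed 3 and 5 there. The 5 at CG8939 include the peaks of 12.1 and 6.19, which lay inside exd and were counted there too. What this gap in replicate 2 stands for was not tested, and an empty stretch of a list cannot be read as an absence of binding.

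**Figure D3:**
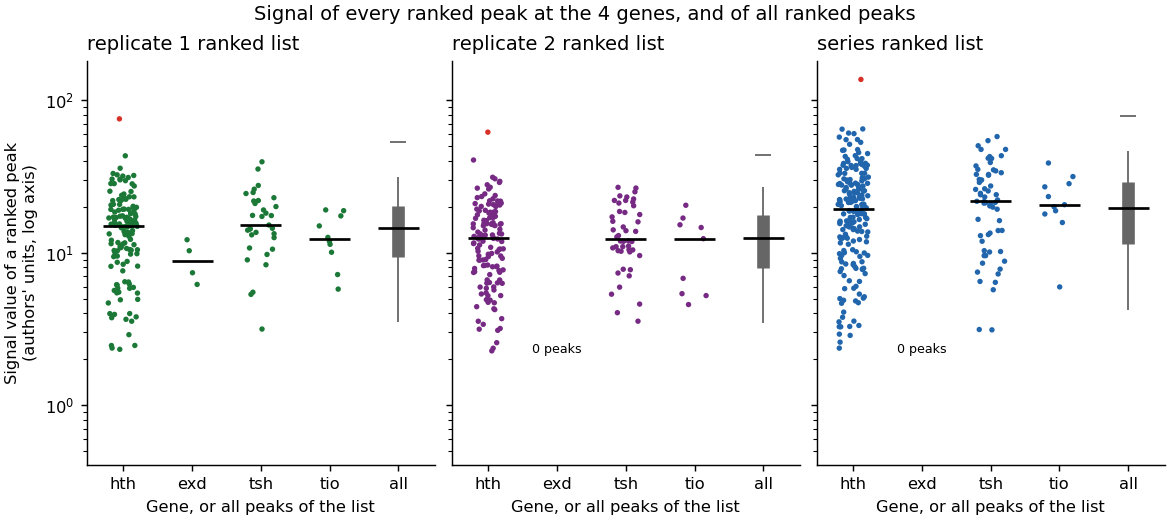
Signal value (authors' units, log axis) of each ranked peak assigned to hth, exd, tsh and tio in replicate 1, replicate 2 and the series, with all peaks of the list at the right of each panel. Points are peaks, red points are past the threshold and black lines are medians. For all peaks the thick bar spans the middle 50%, the thin line the percentiles 5 to 95 and the tick is percentile 99. The medians of hth, tsh and tio lie near that of all peaks, and the 1 red point is the hth site.

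The gene tsh, whose product is a trunk-patterning zinc finger protein, had no thresholded peak but many ranked ones. It covers 2L, 21828593 to 21837011 (plus strand, 1 TSS), and is the only protein-coding gene in an interval of 101.2 kb between CG31612 and CG11629. There were 64 peaks in the series ranked list, 57 in the other, 33 in replicate 1 and 46 in replicate 2. Most lay outside the gene: 12 of the 64 were in its body and 51 (79.7%, 68.3 to 87.7%) were intergenic, against 27.2% of all series ranked peaks. The nearest-TSS rule reaches far beyond the body of 8.42 kb, with summits up to 34073 bp downstream of the TSS. The intergenic share thus reflects the assigned span and shows no preference for intergenic sequence. The body held 1.43 peaks per kb (percentile 70.7 of all protein-coding genes). The median signal was 21.7 at tsh and 19.5 over the list in the series, 15.2 and 14.5 in replicate 1, and 12.3 and 12.4 in replicate 2.

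The strongest tsh peak of the series was tsh site 1 (21814475 to 21814814), 13948 bp upstream of the TSS, with a series value of 57.6, 22.9 in replicate 1 and 26.5 in replicate 2. The second was tsh site 2 (21846979 to 21847318), 18556 bp downstream of the TSS and past the gene's end, with 54.2 in the series, 35.3 in replicate 1 and 18.3 in replicate 2. The third (21818466 to 21818805), 9957 bp upstream, had 50.2 in the series, 26.0 in replicate 1 and 26.8 in replicate 2. All of these were well under the thresholded hth site. In the series ranked list their IDRs were 0.119, 0.317 and 0.0633, and in the other ranked list 0.0323, 0.0557 and 0.0461, none at or below 0.01. The strongest tsh peak of replicate 1, at 21829008 to 21829323 in the 5′ untranslated exon 573 bp from the TSS, had 39.4. The replicate 2 peak that overlapped it had 7.35, with its summit at 0.379 kb from the TSS, against 0.573 kb in replicate 1. With summits apart, the values may not measure the same site. The series value at the replicate 1 peak was 41.5, and the log2 ratio of replicate 2 to replicate 1 was -2.42. Across the gene, 25 of 33 replicate 1 peaks (75.8%, 59.0 to 87.2%) overlapped one of replicate 2, against 62.6% over the whole list.

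A thresholded peak did lie in the interval around tsh, but by the nearest-TSS rule it belonged to CG11629. The tsh-CG11629 site (2L, 21867283 to 21867622) had a series value of 128, 68.0 in replicate 1 and 60.1 in replicate 2, was past the threshold in all 4 thresholded lists and ranked 510 of 1404 in the conservative list. Its summit was 38860 bp from the tsh TSS and 30836 bp from the CG11629 TSS, inside the annotated noncoding genes lncRNA:CR44917 and lncRNA:CR44919. It thus lay 8024 bp nearer to CG11629 than to tsh, and distance alone cannot tell which gene, if any, it bears on. Its window held no match to any of the 9 motifs. On the other side, the nearest conservative peak to tsh (21794867 to 21795040, signal value 295) was assigned to CG31612, 33637 bp from the tsh TSS.

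**Figure D4:**
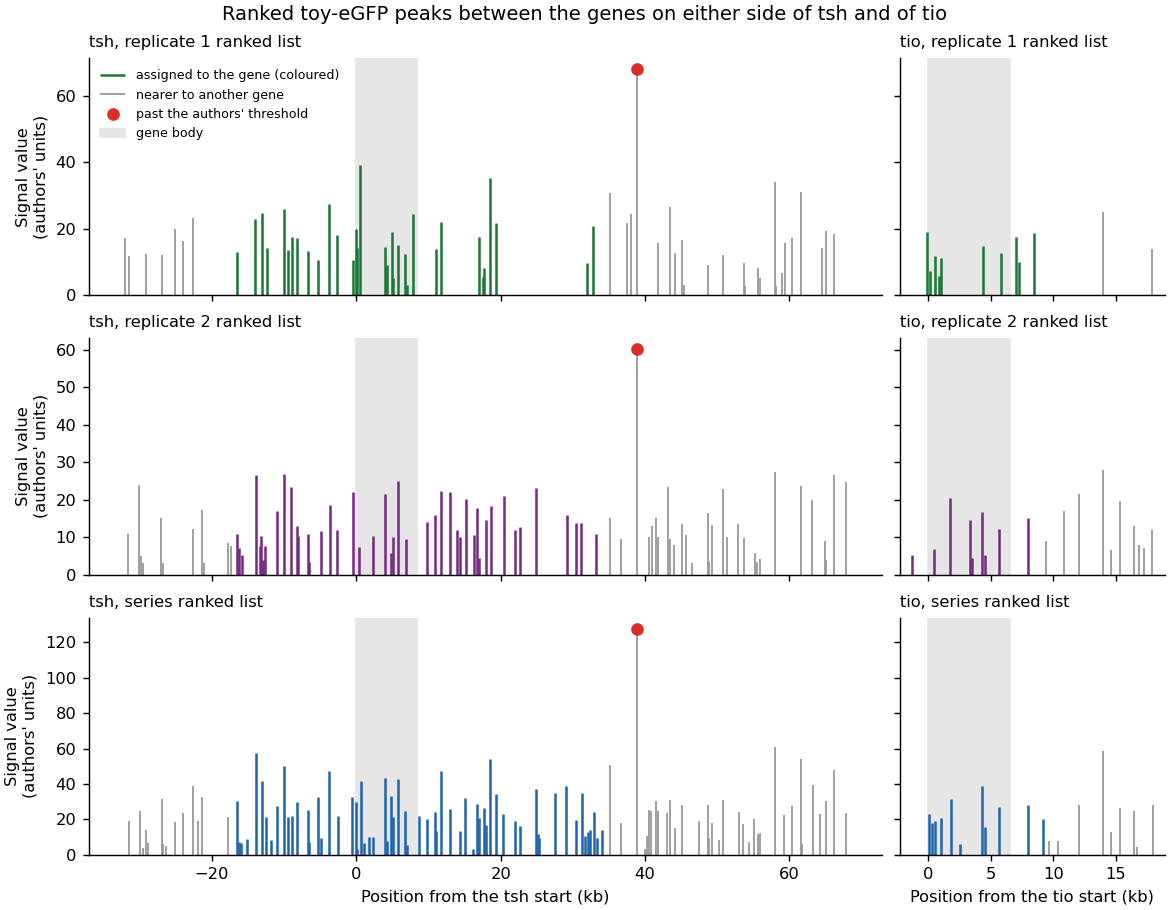
Signal value (authors' units, linear axis) of ranked peaks between the neighbouring genes of tsh (left) and of tio (right) against distance from the gene's start in kb, for replicate 1, replicate 2 and the series. Coloured bars are peaks assigned to the gene, grey bars peaks nearer to another gene, shading is the gene and the red point the thresholded tsh-CG11629 site (68.0, 60.1 and 128). It stands above every other peak of the tsh interval, and no peak of the tio interval passed the threshold.

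The gene tio, the paralogue of tsh, had 11 series ranked peaks, against a median of 5 per gene, and none past the threshold. It covers 2L, 22019208 to 22025734 (plus strand, 6.53 kb, TSSs at 22019208 and 22019322), with CG31693 1873 bp below it and Grl40a 12125 bp above. The other series ranked list held 16, replicate 1 had 10 and replicate 2 had 9. In the series ranked list 7 of the 11 lay above the list median of 19.5, and in the other one 8 of 16 lay above its median. Above the medians of the replicates' lists were 4 of 10 in replicate 1 and 4 of 9 in replicate 2. The median signal was 12.2 at tio and 14.5 over the list in replicate 1, and 12.3 and 12.4 in replicate 2. The strongest of the series, in a coding exon (22023378 to 22023717), had 38.7, with 15.0 in replicate 1 and 16.8 in replicate 2. Of the 11, 4 lay in coding exons and 3 within 500 bp of a TSS, against 19.5% and 12.3% of all series ranked peaks. Of the 10 replicate 1 peaks, 3 (30.0%, 10.8 to 60.3%) overlapped a replicate 2 peak, against 62.6% over the whole list. These counts are small, and no test was made of the differences. The nearest conservative peak was the tsh-CG11629 site, 151755 bp from a tio TSS. Per kb of body, tio had 1.38 series ranked peaks (percentile 68.1).

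The promoters of all 4 genes were without a thresholded peak within 500 bp of a TSS in any of the 4 thresholded lists. In the conservative list 4.76% of all protein-coding genes had one. In the series ranked list, where 63.7% of all genes had a promoter peak, hth had 5, tsh 2 and tio 3, and exd had 0; the strongest were 29.2 at hth, 30.0 at tsh and 23.3 at tio.

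The motif content of the ranked windows at hth, tsh and tio was close to that of all ranked windows for most motifs. TGACAG was in 20 of 197 windows at hth (10.2%, 6.67 to 15.2%), 10 of 64 at tsh (15.6%, 8.71 to 26.4%) and 2 of 11 at tio, against 8.46% of all series ranked windows. TGATTNAT was in 18 at hth (9.14%, 5.86 to 14.0%), 8 at tsh (12.5%, 6.47 to 22.8%) and 2 at tio, against 4.63%. Its share was thus higher at hth and tsh than over all windows. It was picked out of 9 motifs after all were seen, and windows of the same gene are not replicates. No test was made, and nothing is concluded from the difference. Median GC content was 44.8% at hth and 46.3% at tsh, against 46.8% over all series ranked windows. At hth 10 of the 197 windows shared bases with another, so they are not all separate sequence. The other motifs gave shares on either side of those over all windows. The letters TCACGC, the core bound by paired domains such as that of Toy, were in 7 windows at hth (3.55%) and 4 at tsh (6.25%), against 5.39%. GGAATG, bound by the Yorkie partner Scalloped, was in 25 windows at hth (12.7%) and 7 at tsh (10.9%), against 10.5%. TAATTA was in 22 at hth (11.2%) and 3 at tsh (4.69%), against 9.54%. Simple repeats were common in all sets of windows. GAGAG was in 29.4% of windows at hth and 32.8% at tsh, against 23.6%. CACACA was in 22.8% at hth and 20.3% at tsh, against 17.9%. TATCGATA was in 0 windows at hth and 1 at tsh, against 0.40% of all windows. CAGGTAG was in 2 at hth and 0 at tsh, against 1.27%.

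Among 39 genes of 5 lists chosen for their known links to these 4 (dac stands in 2 lists), 6 (15.4%) had a conservative peak, against 8.93% of all genes. None of the 5 other TALE homeobox genes, achi, vis, ara, caup and mirr, had one in the conservative list. Of the 8 Hox genes, whose products bind with Exd and Hth, abd-A alone had one (72.5, in an intron). Of the 10 eye partners, ey alone did (81.7, in an intron). Of the 11 appendage genes, the limb homeobox gene Dll (297, at the promoter) and the signalling gene dpp (96.6, in an intron) did. Of the 6 zinc finger and corepressor genes, the corepressor gene gro (191, at the promoter) and noc did, noc with 2 peaks, the stronger at 123. The hth value of 136 lay between those of noc and gro. In the pooled list 9 of the 39 genes had a peak, against 11.6% of all genes. They included 2 of the other TALE homeobox genes, vis and caup, and abd-A was not among them.

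By signal in the conservative list, replicate 1 and replicate 2, the 4 of 1113 genes whose strongest conservative peak was most like that of hth were Trpm (133, 78.0 and 59.8), tst (141, 78.7 and 62.2), Tsp5D (132, 71.0 and 64.7) and P5CDh1 (145, 75.2 and 65.4). Likeness was the Euclidean distance over the 3 log2 values, from 0.0775 for Trpm to 0.123 for P5CDh1. All 4 of these peaks lay within 500 bp of a TSS, unlike that of hth.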

How the data were processed

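The deposited data were peak lists; per the labels, coordinates are on dm6. Neither aligner nor caller is given in the sources used here. The authors' deposited signal value was read for each peak, and the ranked lists carry the deposited −log10 of the global IDR, of at most 5. Per the deposited descriptions, a replicate's lists used its own alignments and the series' lists used those of both; 16 further columns of the series ranked lists, which no label ties to a replicate, stayed unused. Since read depth is unknown, peak numbers stand in its place.

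The gene models were those of Ensembl 115 (BDGP6.54, equal to dm6), and the sequence was RefSeq Release 6. Summits were assigned as stated above, on 7 arms. Promoter means within 500 bp of a TSS. A site's replicate value is the strongest ranked peak sharing at least 1 base with it. Motifs were searched on both strands. Only shares and Wilson 95% intervals (counting error) were computed: 1 group of 2 replicates allows no contrast and no p-value. Assignment and motif search were tested on simulated data. Python 3.11.15, pandas 2.3.3 and scipy 1.17.1 were used.

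Named genes were the 4 genes with every thresholded peak or, lacking one, the strongest ranked peaks; their neighbours; the 4 genes most like hth; and bound genes of the pathway lists. Other genes and sites were named after their values were seen. Members and lists were chosen with earlier results of these data known. Alternatives were the other lists, IDR limits of 0.001 and, chosen after seeing the data, 0.05, other assignments, stricter overlap and shorter or longer motif windows.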

Additional observations from a re-analysis of the deposited data

How the results depend on the processing

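Of 90 alternative values, 79 kept the reported value within the limits set. Many of these were counts that stayed at 0 for exd, tsh and tio. The limits were also wide: 140 and 139 ranked peaks at hth, with replicate 1 or replicate 2 left out, counted as keeping 197. The single hth peak was in all 4 thresholded lists. With summits limited to 5 kb from the nearest TSS, 0 members and 0 hth peaks were left, because the hth site lies farther out; at an IDR of 0.05, a limit chosen after seeing the data, hth had 6 peaks. The signal value of the hth site was 136 from both replicates and 61.6 to 75.2 with 1 replicate left out. The latter are the values in the replicates' own lists, whose scale may differ, so no drop in signal can be read from them. For exd, ranked peaks were 0 in the series list, 2 in the other series list and 0 to 4 with 1 replicate left out. For tsh they were 64, or 12 in the gene body only, and 33 (without replicate 2) to 46 (without replicate 1). Where 50% of each peak had to overlap, 43.9% of replicate 1 peaks at hth and 57.6% at tsh met one of replicate 2, against 60.4% and 75.8% with any base. In the other direction the share at hth was 44.3%, against 56.4% with any base. The 18 motif alternatives gave the same matches at the hth site. No paired analysis was possible because there is 1 group and no comparison between groups. Read depth is unknown and the control was not analysed here, so a missing peak is not an absence of binding.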
